A study of Caenorhabditis elegans with 12 samples.

Results

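The mbl-1(tm1563) mutant of Caenorhabditis elegans was compared with the wild-type strain N2 for its microRNAs (miRNAs), in small RNA from whole larvae at the L4 stage. The features described are all those of the deposited count table that carry a registered miRNA name, which is 370 of 471; the other 101 are predicted miRNAs without a name. Each feature is 1 mature arm of a miRNA hairpin. Of the 370, 235 had enough counts for testing, and 9 of the other 135 had 0 counts in all 6 libraries of these groups. Both groups were staged by bleaching, seeded on OP50 bacteria as L1 larvae and raised at 20 °C. Each group had 3 libraries, which the series' design text describes as biological replicates. Per the labels, tm1563 is an allele of mbl-1, and the series' title speaks of deletion of the gene. The allele is present in every cell, and the RNA came from whole larvae. Because whole animals were used, a change in 1 tissue cannot be told apart from a change in the share of that tissue in the animal. Nor can fewer cells of a type be told apart from less RNA per cell. The study also sequenced a pair of edited mbl-1 lines, syb4318 and syb4345, each of which makes a single class of protein isoform, short or long; no label ties their count columns to either line, and their 6 libraries are used here together.

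mbl-1 is the worm gene for Muscleblind, a zinc finger protein that binds RNA and sets alternative splicing in muscle and neurons. In human cells the related protein MBNL1 binds the loop of the miR-1 precursor and promotes its cutting by Dicer. A miRNA hairpin is cut into a duplex of a 5p and a 3p arm, of which usually 1, the major arm, is kept by an Argonaute protein and pairs with target mRNAs through its seed, while the minor arm is mostly degraded. The annotation places mbl-1 on the forward strand of chromosome X, from 16978608 to 17010302 (build WBcel235). Its mRNA is not measured in small RNA libraries, so the genotype could not be checked from the counts.

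Totals were 8493518, 9784205 and 12053039 counts in wild type and 10764528, 7890851 and 7388114 in tm1563. Levels are given as CPM, counts scaled to a common total, on library sizes scaled by the trimmed mean of M values, and 3 counts, taken as the floor, stand at 0.244 to 0.448 CPM in these libraries. These limits hold for counting error alone, because PCR reads are not separate molecules. The biological coefficient of variation was 22.7%. Wild-type library 1 stood apart: 281 named miRNAs had a count in it, against 308 to 320 in the other 5 libraries. The 5 most abundant miRNAs took 68.7% of its counts, against 53.8% to 60.9% in the others, and its scaling factor was 0.788.

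Relative to wild type, 13 named miRNAs rose and 11 fell in tm1563 (edgeR quasi-likelihood test, Benjamini-Hochberg adjusted p under 0.05 over the 250 features tested). Over all 250 features, 5.2% were called higher, 4.8% lower and 10% in either direction. Wild type and tm1563 did not overlap for 34.4% of all 250 features; among the named miRNAs, tm1563 lay wholly above wild type for 48 and wholly below for 34, including all 24 called. At an unadjusted p under 0.05 stood 62 of the 235. The rises included 2 of 6 tested miRNAs listed for neurons and glia, and 2 of 6 listed for muscle, intestine and posterior cells. Both lists were chosen with earlier results of these data known, and most of their members were not called. The falls included 6 of the 80 tested minor arms.

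The balance of rises and falls moved with the scaling. With RLE size factors 11 rose and 17 fell, and with library totals 14 rose and 1 fell. DESeq2, which differs from edgeR in its test and spread estimate as well as its scaling, called 16 rises and 21 falls. The median log2 fold change over all features was 0.03, and 0.15 when library totals were used. With wild-type library 1, 2 or 3 left out, 9, 8 or 7 miRNAs were called higher and 7, 6 or 3 lower, newly called ones included, while 13, 10 or 15 of the 24 calls were lost. With any of the tm1563 libraries left out, 5 were called higher. Without tm1563 library 1 edgeR, the tool run on these subsets, called 0 falls, with 54 miRNAs at an unadjusted p under 0.05 in either direction, and without library 2 or 3 it called 5 or 9. Of the 24 calls 19, 14 or 11 were lost without tm1563 library 1, 2 or 3. Under all 12 alternatives tried, the calls of miR-90-3p, miR-243-3p, miR-245-3p, miR-251 and miR-790-5p were kept.

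**Figure D1:**
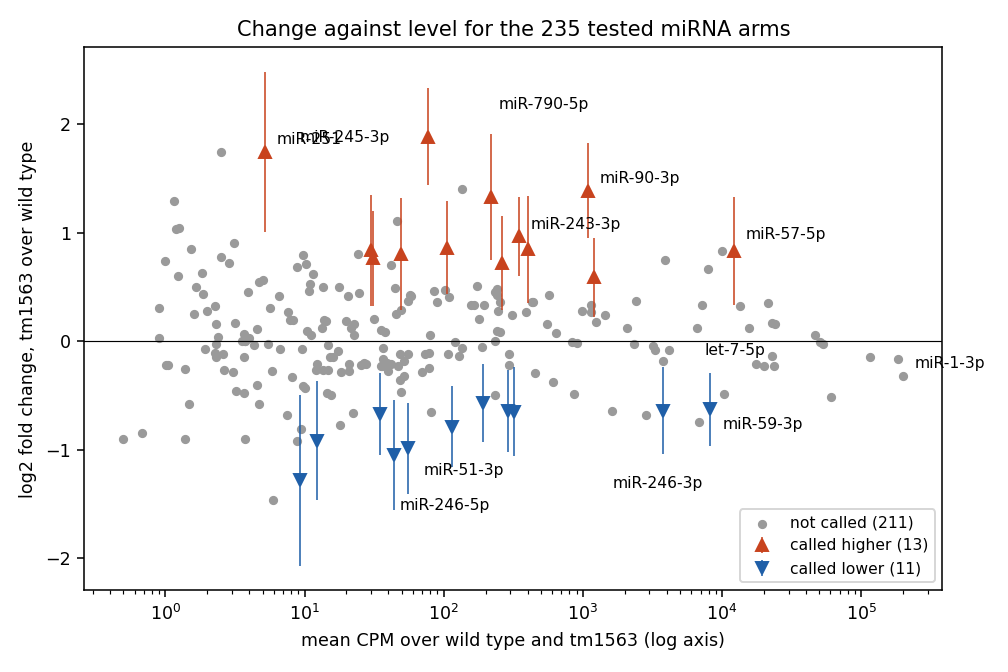
Log2 fold change of tm1563 over wild type (vertical axis) against the mean CPM of both groups (horizontal log axis) for the 235 tested named miRNAs; triangles are the 13 called higher and the 11 called lower, with lines for 95% intervals, and grey points are the 211 not called. Above 1000 CPM in wild type no miRNA changed by more than 1 on the log2 scale, and 1 was called higher and 2 lower.

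What could be seen depended on the level. Of the 235 miRNAs, 146 (62.1%) had a 95% interval of the log2 fold change lying within -1 to 1. This share was 25 of 70 (35.7%) under 10 CPM in wild type, 56 of 82 (68.3%) from 10 to 100 CPM, 33 of 43 (76.7%) from 100 to 1000 CPM and 32 of 40 (80%) above that. Fold changes above 1 in size on the log2 scale were measured for 13 miRNAs, 0 of them above 1000 CPM in wild type.

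miR-245-3p, which has no well known role, had the smallest p of the comparison. Its levels were 32.0, 38.2 and 28.5 CPM in wild type and 101, 128 and 135 CPM in tm1563. The lowest tm1563 library thus lay well above the highest wild-type library. This is a 3.69-fold rise (95% interval 2.71 to 5.03; log2 fold change 1.88, SE 0.21, edgeR adjusted p = 3.39e-05). Under the 12 alternatives its log2 fold change lay between 1.68 and 2.01. The hairpin is intergenic on chromosome I. Its other arm, miR-245-5p, had at most 0.407 CPM in any library and was not tested.

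miR-90-3p was counted at 649, 605 and 556 CPM in wild type and at 1088, 1968 and 1674 CPM in tm1563. The mutant libraries were further apart than those of wild type, and all lay higher. The rise was 2.61-fold (95% interval 1.93 to 3.54; log2 fold change 1.39, SE 0.21). mir-90 lies in an intron of K01F9.2, on the same strand (chromosome III, 8873987 to 8874084, reverse strand), near mir-80 and mir-238. Neither neighbour passed the test, with log2 fold changes of 0.00 for miR-80-3p and 0.17 for miR-238-3p. The other arm of the same hairpin, miR-90-5p, had a log2 fold change of -0.21 (edgeR adjusted p = 0.700) at 9.25 to 15.2 CPM.

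Among the miRNAs of neurons and glia, a list chosen with earlier results of these data known, 2 of 6 tested rose and 0 fell. Over all features 5.2% were called higher. The list had a median log2 fold change of 0.44 beside 0.03 over all features. miR-790-5p, a relative of the glial miRNA miR-228, was counted at 80.4, 137 and 156 CPM in wild type and at 294, 320 and 327 CPM in tm1563. The mutant libraries lay close together, while wild-type library 1 was lower than the other wild-type libraries. The rise was 2.51-fold (95% interval 1.68 to 3.75; log2 fold change 1.33, SE 0.27, edgeR adjusted p = 0.00738). Its minor arm miR-790-3p, at 4.93 to 8.03 CPM in wild type and 8.80 to 12.6 CPM in tm1563, had a log2 fold change of 0.68 and did not pass (edgeR adjusted p = 0.0958). mir-790 is intergenic (chromosome IV, 5566422 to 5566491, forward strand) and lies within 10 kb of mir-228, whose major arm miR-228-5p did not pass at 0.16 (95% interval -0.17 to 0.50).

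miR-234-3p, a neuronal miRNA, was at 177 to 230 CPM in wild type and 294 to 375 CPM in tm1563, a log2 change of 0.72 (SE 0.20, edgeR adjusted p = 0.0398). Its call was kept in 6 of the 12 alternatives. Of the 6 fits that left out a library, only 1 kept it, that without wild-type library 1, and it was also lost without the filter on low counts. Another relative of miR-228, miR-791-3p, which acts in the neurons that sense CO2, was near the floor at 2.69, 0.669 and 0.406 CPM in wild type and 2.54, 4.38 and 4.46 CPM in tm1563. Wild-type library 1 overlapped the mutant here, and the log2 fold change of 1.74 did not pass (edgeR adjusted p = 0.0649). The left-right neuronal miRNA lsy-6-3p and miR-124-3p of sensory neurons stood at -0.02 and 0.01, both with intervals wider than 1 on either side.

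In the list for muscle, intestine and posterior cells, also chosen with earlier results known, 2 of 6 rose and 0 fell. The median log2 fold change was 0.10, and 5.2% of all features were called higher and 4.8% lower. miR-243-3p, which is bound by the Argonaute RDE-1 rather than by the usual miRNA Argonautes, was counted at 263, 206 and 240 CPM in wild type and at 516, 467 and 400 CPM in tm1563. The groups were well apart, with a 1.95-fold rise (95% interval 1.52 to 2.51; log2 fold change 0.96, SE 0.17, edgeR adjusted p = 0.00343). Its minor arm miR-243-5p had a log2 fold change of 0.79 at 5.93 to 8.67 CPM in wild type and did not pass (edgeR adjusted p = 0.0733). mir-243 lies in an intron of R08C7.12 on the same strand (chromosome IV, 4450779 to 4450876, forward strand).

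miR-57-5p, which helps to set posterior cell fates, was the most abundant of the rises, at 8213, 8753 and 9201 CPM in wild type and 16613, 15010 and 14984 CPM in tm1563. Both groups were tight, and the rise was 1.78-fold (95% interval 1.26 to 2.52; log2 fold change 0.83, SE 0.24, edgeR adjusted p = 0.0398). The call was lost when any single library was left out, with adjusted p of at most 0.138 over all alternatives and log2 fold changes from 0.72 to 0.93. The minor arm miR-57-3p did not follow, at -0.16. The hairpin is intergenic (chromosome II, 7850499 to 7850597, reverse strand). The muscle miRNA miR-1-3p, the most abundant miRNA of the table, was counted at 282810, 196311 and 190026 CPM in wild type and 211156, 192622 and 131183 CPM in tm1563. The groups overlapped, and the log2 fold change was -0.32 (95% interval -0.85 to 0.21). The intestinal miRNA miR-60-3p and miR-240-3p, of the same list, stood at -0.08 and -0.11. miR-240-3p is the minor arm of its hairpin. The major arm miR-240-5p, which is not in the list, was called lower (-0.65), so the count of falls depends on the arm listed.

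All 6 members of the mir-51 family, the worm relatives of miR-100, had positive log2 fold changes, from 0.33 to 0.85 with a median of 0.47, and did so with TMM, RLE and library-total scaling. Over all 250 features 128 were positive with TMM, 117 with RLE and 155 with library totals, and the TMM median was 0.03. Called higher were 2 of the 6, miR-53-5p and miR-56-3p, beside 5.2% of all features. miR-53-5p was counted at 286, 343 and 242 CPM in wild type and 470, 564 and 530 CPM in tm1563. The 1.80-fold rise (95% interval 1.28 to 2.53; log2 fold change 0.85, SE 0.23, edgeR adjusted p = 0.0398) was lost in 5 of the 6 fits that left out a library, all but that without wild-type library 2. miR-56-3p was at 792 to 1042 CPM in wild type and 1292 to 1520 CPM in tm1563, a log2 change of 0.59 that was lost in all 6 such fits. miR-52-5p, at 5184 to 6890 and 8766 to 10288 CPM, also did not overlap but missed the threshold (0.66, edgeR adjusted p = 0.101). Whether any family members share reads could not be checked, because no mature sequences were at hand. The sum of the 6 was therefore tested too. It averaged 34437 ± 3749 CPM in wild type and 43168 ± 4254 CPM in the mutant (SD, n = 3), a log2 fold change of 0.33 (95% interval -0.10 to 0.75) that did not pass.

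The minor arm of mir-51 itself went the other way. miR-51-3p was counted at 68.9, 83.5 and 69.1 CPM in wild type and 31.9, 43.9 and 36.1 CPM in tm1563, a fall of 0.99 on the log2 scale (SE 0.20, edgeR adjusted p = 0.00681). Its major arm miR-51-5p had a log2 fold change of 0.33 with overlapping groups. mir-51 and mir-53 are intergenic neighbours on the reverse strand of chromosome IV, at 11026013 to 11026112 and 11027593 to 11027691. The call of miR-51-3p was lost without tm1563 library 1 (edgeR adjusted p = 0.0643) and kept under the other 11 alternatives.

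Further rises were those of miR-251, miR-230-3p, miR-356b-3p, miR-242 and miR-1830-5p. miR-251 was rare, at 2.84, 2.39 and 1.95 CPM in wild type and 4.78, 8.13 and 11.0 CPM in tm1563. The spread among the mutant libraries was wide, but none reached down to wild type; the log2 fold change was 1.74 (SE 0.35, edgeR adjusted p = 0.00681). miR-230-3p was at 69.6, 71.1 and 82.7 CPM and rose to 137, 134 and 135 CPM, which are nearly identical levels in the 3 mutant libraries (log2 fold change 0.86, SE 0.20). Its other arm miR-230-5p, of like abundance, was at 0.36 and did not pass. miR-356b-3p was at 21.5, 27.4 and 19.7 CPM in wild type and 33.5, 42.1 and 40.8 CPM in tm1563 (log2 fold change 0.76, SE 0.21). The ranges of miR-242 were 29.3 to 39.6 and 57.4 to 70.3 CPM (0.80), and those of miR-1830-5p, the only minor arm that rose, were 18.2 to 26.1 and 33.7 to 42.6 CPM (0.84). Each of miR-230-3p, miR-356b-3p, miR-242 and miR-1830-5p lost its call in 4 or more of the 6 fits that left out a library.

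**Figure D2:**
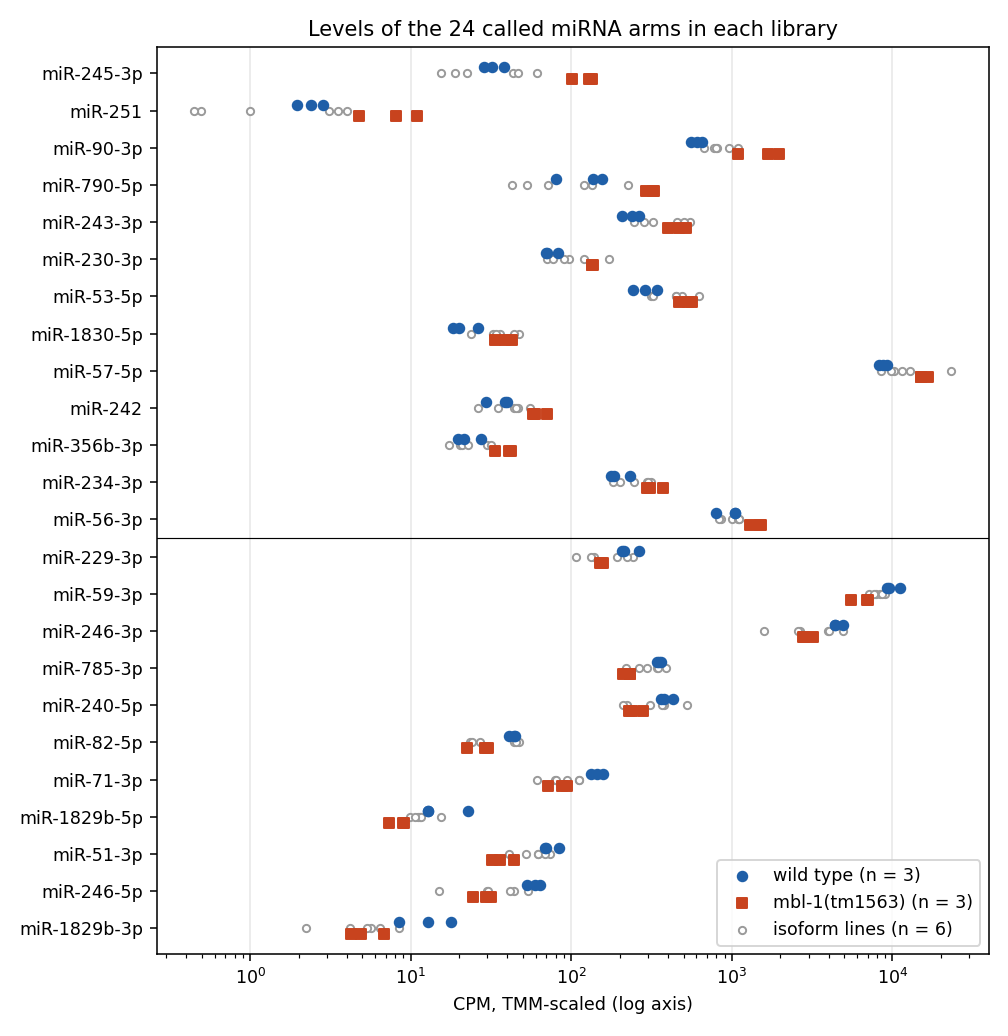
CPM (horizontal log axis) of the 24 called miRNAs in each library, with the 13 rises above the line and the 11 falls below; filled circles are the 3 wild-type libraries, squares the 3 tm1563 libraries and open circles the 6 libraries of the isoform lines. For every one of the 24 the circles and squares of wild type and tm1563 do not overlap, as for 34.4% of all 250 features. All 6 open circles also lie below the tm1563 squares for miR-245-3p, miR-251, miR-790-5p, miR-356b-3p, miR-56-3p and miR-242, and above them for miR-59-3p and miR-1829b-5p. Of these, miR-242, miR-59-3p and miR-1829b-5p were not called against the isoform lines. The 24 were picked on these same tm1563 libraries, and the share of all features so separated from the isoform lines was not counted.

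Both arms of mir-246 fell. miR-246-3p, a miRNA of the gonad with a role in lifespan, was at 4382 to 4903 CPM in wild type and 2760 to 3218 CPM in tm1563, a fall of 0.64 on the log2 scale (SE 0.19, edgeR adjusted p = 0.0420). It was the 1 call among 8 miRNAs of lifespan and stress, whose median was -0.11, beside 10% called in either direction over all features. The minor arm miR-246-5p was counted at 53.2, 59.7 and 64.0 CPM in wild type and at 24.4, 31.5 and 29.6 CPM in tm1563, a fall of 1.05 (SE 0.24, edgeR adjusted p = 0.0150). The call of the major arm was lost in each fit that left out a library, and that of the minor arm without tm1563 library 1 and with library totals. mir-246 is intergenic (chromosome IV, 10940134 to 10940230, forward strand).

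miR-59-3p was the most abundant miRNA that fell, from 11190, 9307 and 9551 CPM to 5479, 7024 and 6929 CPM. Every mutant library lay below every wild-type library, and the fall was 0.63 on the log2 scale (95% interval -0.96 to -0.29, SE 0.16, edgeR adjusted p = 0.0266). It was lost with library totals and without wild-type library 1 or 3 or tm1563 library 1, with adjusted p of at most 0.156. mir-59 is intergenic (chromosome IV, 11309154 to 11309253, reverse strand), and miR-59-5p, at up to 0.244 CPM, was not tested.

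miR-785-3p was counted at 342, 360 and 351 CPM in wild type and 231, 234 and 210 CPM in tm1563, with little spread in either group (log2 fold change -0.64, SE 0.18, edgeR adjusted p = 0.0398). Its neighbour on chromosome X, miR-359, at 1620 to 2284 and 1204 to 1348 CPM, had the same log2 fold change of -0.64 and narrowly missed the threshold (edgeR adjusted p = 0.0531). miR-240-5p, from a hairpin near mir-786, which acts in the intestine to keep the defecation rhythm, was at 364 to 432 CPM in wild type and 230 to 278 CPM in tm1563 (-0.65). Both arms of mir-1829b fell, by 0.92 for miR-1829b-5p (12.8 to 22.7 CPM in wild type, 7.33 to 9.03 CPM in tm1563) and 1.28 for miR-1829b-3p (8.42 to 17.9 and 4.27 to 6.86 CPM). Further mir-1829 copies may hold some of these reads, and wild-type library 1 was the highest of its group for both arms. Without that library neither call was kept. The calls of miR-785-3p and miR-240-5p were lost in 6 and 5 of the 6 fits that left out a library.

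Of the 152 precursors with both arms in the table, 80 minor arms were tested, of which 1 rose and 6 fell, with a median log2 fold change of -0.12. Among the 130 tested major arms 10 rose and 4 fell, with a median of 0.09. Some of these major arms have a minor arm that was not tested, so the medians cover unlike sets of precursors. Beside these counts, 5.2% of all features were called higher and 4.8% lower. With library totals the median of the minor arms was -0.02 and that of the major arms 0.20, and with RLE size factors they were -0.19 and 0.01. Besides miR-51-3p, miR-246-5p and miR-1829b-3p, the minor arms that fell were miR-71-3p, miR-82-5p and miR-229-3p. miR-71-3p was counted at 133, 145 and 158 CPM in wild type and 71.2, 87.9 and 93.6 CPM in tm1563 (log2 fold change -0.79, SE 0.18, edgeR adjusted p = 0.0138). Its major arm miR-71-5p, which extends lifespan, was at 17360, 27102 and 32360 CPM and at 22097, 22699 and 20663 CPM, which overlap (-0.23, 95% interval -0.70 to 0.24).

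miR-82-5p was at 40.7, 44.0 and 44.4 CPM in wild type and 22.3, 30.1 and 28.8 CPM in tm1563 (log2 fold change -0.67, SE 0.18, edgeR adjusted p = 0.0398). The major arm of that hairpin, miR-82-3p of the mir-58 family, the worm relatives of fly bantam, was lower in all 3 mutant libraries (42822 to 54602 against 57095 to 91799 CPM) at -0.51 and did not pass (edgeR adjusted p = 0.123). miR-229-3p ranged from 206 to 266 CPM in wild type and from 151 to 157 CPM in tm1563 (-0.57). The calls of miR-71-3p, miR-82-5p and miR-229-3p were lost with library totals, and each was lost without wild-type library 3 and without tm1563 library 1. That of miR-82-5p was also lost without wild-type library 2, and that of miR-229-3p in all 6 fits that left out a library. Of the 12 alternatives, 9 kept miR-71-3p, 8 kept miR-82-5p and 4 kept miR-229-3p.

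To compare the arms independently of library scaling, the log2 ratio of 5p to 3p counts was tested within each of the 80 precursors. The ratio changed in 4 (limma, adjusted p = 0.0245 each), which is 5% of those tested. In mir-51 the minor 3p arm made up 1.16% ± 0.246 of the counts in wild type and 0.467% ± 0.0752 in the mutant (SD, n = 3), a log2 ratio change of 1.32 (SE 0.30). In mir-90 the minor 5p arm went from 2.16% ± 0.405 to 0.792% ± 0.364 (-1.55, SE 0.39), as its 3p arm rose. In mir-39, a member of the mir-35 cluster, the 5p arm went from 3.01% ± 0.459 to 1.27% ± 0.185 (-1.27, SE 0.32).

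In mir-788 (chromosome X, 8485294 to 8485371, reverse strand, intergenic) the share of the minor arm rose instead. Its minor 5p arm made up 26.1%, 16.2% and 13.1% of the counts in wild type and 43.9%, 42.9% and 37.3% in tm1563. In the mutant the arms were thus nearly balanced, while wild-type library 1 lay between the other wild-type libraries and the mutant (log2 ratio change 1.70, SE 0.42). miR-788-5p on its own, at 110, 65.7 and 45.7 CPM in wild type and 224, 200 and 160 CPM in tm1563, had a log2 fold change of 1.40 and did not pass (edgeR adjusted p = 0.0958), and miR-788-3p stood at -0.22. Each of the 4 ratio calls was lost in 5 of the 6 fits that left out a library, with adjusted p of up to 0.124 to 0.156, and kept its direction.

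Over all 80 precursors the minor arm was lower relative to the major arm in 46 and higher in 34, with a median change of -0.14. At an unadjusted p under 0.05 it was relatively lower in 15 and higher in 5. The median over precursors of log2 minor over major counts was -5.13, -4.92 and -4.99 in wild type and -5.35, -5.01 and -5.27 in tm1563, so that the groups overlapped. The share of all counts in minor arms was 0.557%, 0.898% and 0.955% in wild type and 0.630%, 0.712% and 0.742% in tm1563, with wild-type library 1 the lowest of the 6.

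**Figure D3:**
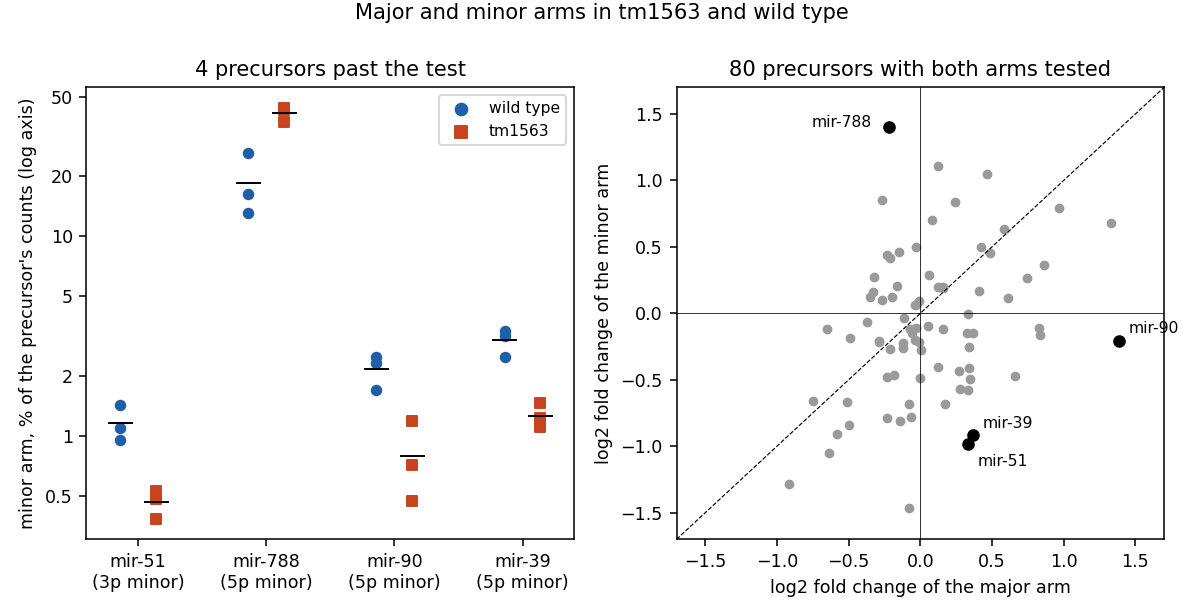
Left, the share of a precursor's counts in its minor arm (percent, log axis) in each library for the 4 precursors whose arm ratio changed; circles are wild type, squares tm1563 and bars the means of 3 libraries. Right, the log2 fold change of the minor arm against that of the major arm for the 80 precursors, with the 4 in black; mir-51, mir-90 and mir-39 lie below the dashed line of equal change and mir-788 above it.

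The mir-35 cluster, whose miRNAs are abundant in embryos and needed for their viability, is described here by arm. Of its 5 precursors with both arms tested, mir-39 was the only one whose arm ratio passed (limma); the log2 ratio change of 5p to 3p was -0.78 in mir-36, -0.69 in mir-40, -0.59 in mir-37 and -0.02 in mir-41. Its 7 hairpins lie on chromosome II in an intron of Y62F5A.9 on the opposite strand. Of the 7 tested 3p arms 5 had positive log2 fold changes, among them miR-35-3p at 0.42 (468 to 510 CPM in wild type and 563 to 740 CPM in tm1563) and miR-39-3p at 0.37 (352 to 401 and 463 to 521 CPM). The 2 others were miR-40-3p at -0.06 and the rare miR-41-3p at -0.90. All 5 tested 5p arms were negative, from -0.92 to -0.25 with a median of -0.58, and remained so with RLE size factors and library totals. miR-39-5p was at 10.2, 11.5 and 13.1 CPM in wild type and 5.70, 5.75 and 6.97 CPM in tm1563, and miR-40-5p at 18.4, 25.1 and 24.1 CPM and 12.2, 13.8 and 13.6 CPM. The groups did not overlap for either, and neither passed (edgeR adjusted p = 0.0649 for each). No arm of the cluster was called by edgeR among the 12 tested.

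None of the developmental timing miRNAs passed the test. let-7-5p, which drives the larva to adult transition, was at 6280, 5949 and 6712 CPM in wild type and 7347, 7109 and 6159 CPM in tm1563 (log2 fold change 0.12, 95% interval -0.18 to 0.43). lin-4-5p, which ends the first larval program, was at 1042 to 1818 and 1348 to 1743 CPM (0.24, -0.38 to 0.87). The let-7 relatives miR-48-5p, miR-84-5p and miR-241-5p stood at 0.06, -0.04 and 0.12. By edgeR 0 of the 6 timing miRNAs and 0 of the 7 let-7 family members were called, with 0 and 1 at an unadjusted p under 0.05. The summed let-7 family was 58246 ± 1750 CPM in wild type and 57021 ± 8420 CPM in the mutant (SD, n = 3; log2 fold change -0.03, 95% interval -0.36 to 0.30), with a sign that turned under RLE size factors and library totals.

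The other family sums did not pass either. The mir-35 family had a log2 fold change of 0.24 (95% interval -0.09 to 0.58), the mir-58 family -0.29 (-0.64 to 0.05), the mir-64 family -0.21 (-0.52 to 0.10) and the mir-44 family -0.19 (-0.73 to 0.35), the last turning slightly positive with library totals. In that table of sums and remaining features 12.1% of rows were called, and 0 of the 6 sums by edgeR, with 0 at an unadjusted p under 0.05 and 0 by DESeq2. As single miRNAs, 0 of the 4 tested mir-58 members, 0 of the 4 mir-64 members, 0 of the 3 mir-44 members and 0 of the 3 mirtrons, whose hairpins are spliced introns, were called by edgeR. The annotation used here places mir-1018, of the mirtron list, as intergenic. At an unadjusted p under 0.05 stood 1 mir-58 member, miR-82-3p, and 1 mir-44 member, miR-61-3p at -0.49. miR-82-3p was called by DESeq2.

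Of the 5 most abundant miRNAs, none was called by edgeR, while miR-82-3p, the fourth in abundance, was called lower by DESeq2 as given above. miR-70-3p was at 145498 to 273252 CPM in wild type and 143594 to 220392 CPM in tm1563 (log2 fold change -0.17), miR-58a-3p at 101573 to 157774 and 96110 to 117988 CPM (-0.15), and miR-44-3p at 45439 to 65917 and 41065 to 68310 CPM (-0.03). For miR-70-3p, miR-58a-3p and miR-44-3p wild-type library 1 was the highest of its group. Without it their log2 fold changes turned positive, to 0.16, 0.09 and 0.15.

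**Figure D4:**
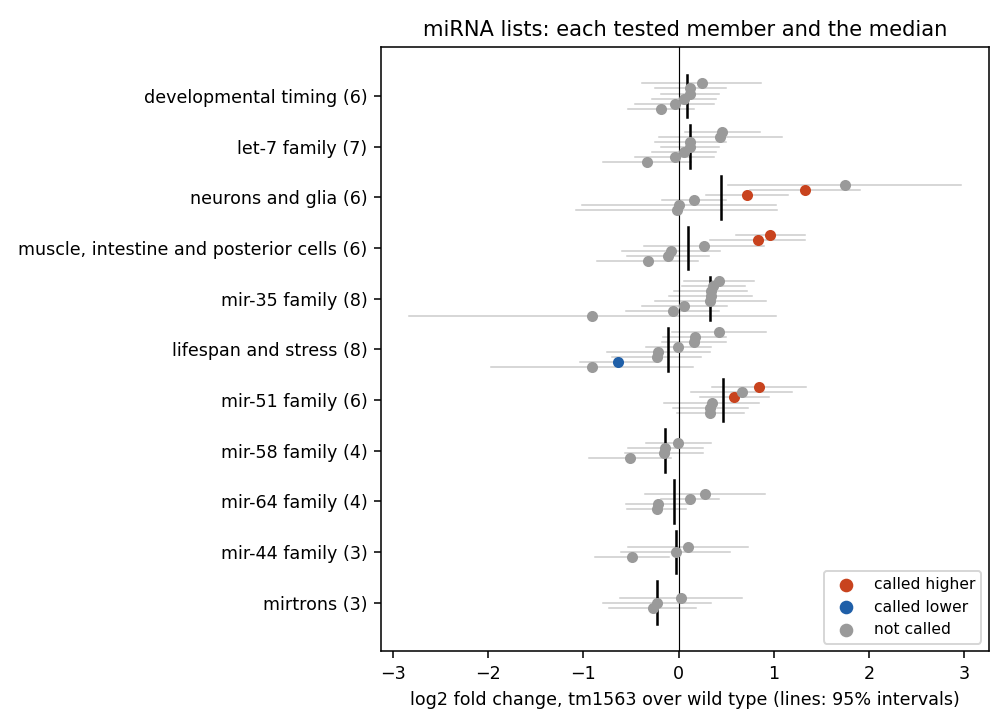
Log2 fold change of tm1563 over wild type for each tested member of 11 miRNA lists (points, with 95% intervals as lines) and the list median (vertical bar); the number of tested members is in parentheses. All 6 mir-51 members lie right of 0, as do 128 of all 250 features. The called members are 2 of neurons and glia, 2 of muscle, intestine and posterior cells, 2 of the mir-51 family and 1 of lifespan and stress. Over all features 5.2% were called higher and 4.8% lower.

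The genomic positions of the called miRNAs were taken from the annotation, in which 360 of the 370 names matched a single hairpin. Calls were made for 8 of 34 tested arms on chromosome IV (23.5%), 8 of 74 on X (10.8%), 3 of 30 on III, 3 of 43 on II, 2 of 24 on I and 0 of 22 on V, beside 10% over all features. The 8 on chromosome IV include both arms of mir-246, and the neighbours mir-51 and mir-53. Of 131 tested arms from intergenic hairpins 9 rose and 6 fell, and of 63 from introns on the host's strand 3 rose and 5 fell. Within 1000 kb of mbl-1 itself 6 arms were tested, from mir-63, mir-84, mir-1819 and mir-2212, with log2 fold changes from -0.27 to 0.19, and none was called by edgeR or lay nearer than 588.5 kb.

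Hairpins within 10 kb on a strand formed 26 clusters. In most clusters with a call the neighbours did not pass the test, as for miR-90-3p beside miR-80-3p and miR-790-5p beside miR-228-5p. In the cluster of mir-54, mir-55 and mir-56, the 3p arms stood at 0.35, 0.33 and 0.59. The 3 tested arms of mir-230 and mir-791 were all positive and those of mir-359 and mir-785 all negative under TMM, RLE and library-total scaling. The 4 arms of mir-250 and mir-61 were negative with TMM and RLE, while 1 was at 0.00 with library totals.

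**Figure D5:**
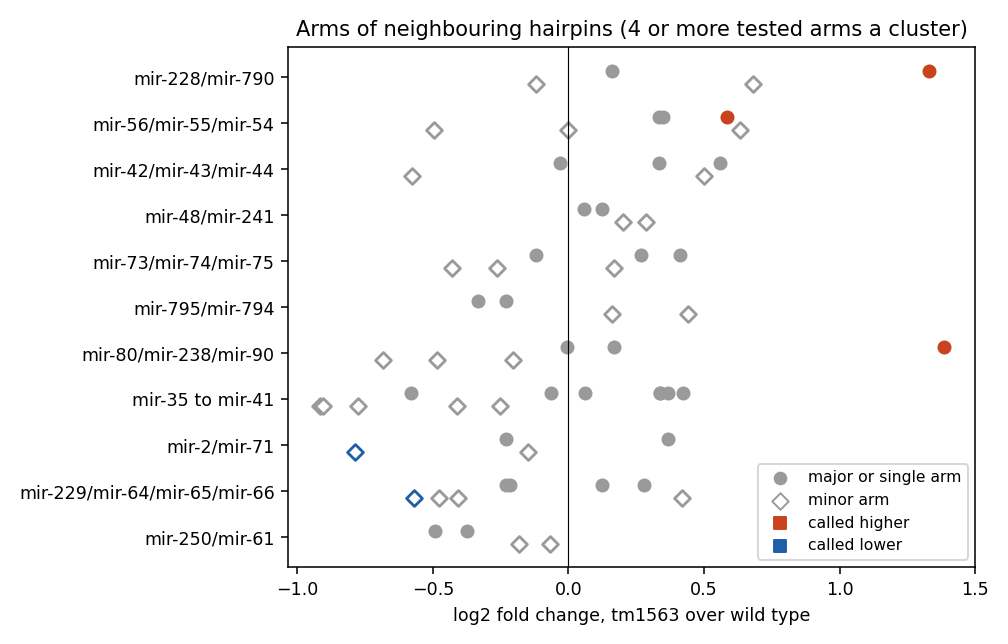
Log2 fold change of tm1563 over wild type for each tested arm of the 11 hairpin clusters with 4 or more tested arms; circles are major or single arms, diamonds minor arms, and colour marks the arms called higher or lower. In the mir-80/mir-238/mir-90 and mir-228/mir-790 clusters a single arm was called. In the mir-35 to mir-41 row the 5p arms lie left of 0, as do miR-40-3p and miR-41-3p. The symbols do not mark 5p and 3p: miR-41-5p is a circle and miR-41-3p a diamond.

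The tm1563 libraries were also set against the 6 libraries of the isoform lines, as the mean of both lines. This comparison uses the same tm1563 libraries as that with wild type, so it is no independent support for it. Over the 250 features 5.6% were called. Of the 24 miRNAs above, 7 were called, each in the direction of the comparison with wild type. miR-245-3p, at 15.5 to 60.9 CPM in the isoform lines, was lower there than in every tm1563 library (log2 fold change 1.98, SE 0.17, edgeR adjusted p = 9.46e-07). miR-251 at 0.450 to 3.99 CPM (2.37, edgeR adjusted p = 8.12e-05) and miR-790-5p at 42.5 to 224 CPM (1.73, edgeR adjusted p = 8.12e-05) were likewise below all mutant libraries. The levels differed between the lines. miR-251 was at 0.993, 0.495 and 0.450 CPM in the columns of 1 line, near the floor, and at 3.11, 3.99 and 3.53 CPM in those of the other. In the same order, miR-790-5p was at 42.5 to 72.1 and 121 to 224 CPM, and miR-245-3p at 15.5 to 22.3 and 43.4 to 60.9 CPM.

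Lower in the isoform lines were also miR-90-3p (0.90, edgeR adjusted p = 0.00479), miR-356b-3p (0.73, edgeR adjusted p = 0.0174) and miR-56-3p (0.53, edgeR adjusted p = 0.0422), and higher was miR-51-3p (-0.67, edgeR adjusted p = 0.0324). The call of miR-90-3p was lost without tm1563 library 2 (edgeR adjusted p = 0.0662), that of miR-356b-3p in 3 of 9 alternatives (adjusted p of at most 0.185), that of miR-51-3p in 4 of 9 and that of miR-56-3p in 8 of 9. The other 17 were not called by edgeR (miR-785-3p was by DESeq2), among them miR-243-3p at 0.29, miR-57-5p at 0.33, miR-71-3p at -0.07 and miR-246-5p at -0.26. A p that misses the threshold does not show that these levels are alike. A mean over both lines can also hide a difference between them: miR-243-3p was at 548, 455 and 503 CPM in the columns of 1 line, where it overlapped tm1563, and at 245, 325 and 285 CPM in those of the other, below every tm1563 library. The differences between the lines were not tested.

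In the authors' deposited table for tm1563 stand 51 features, of which 50 are named; 24 are higher and 27 lower. All 25 features called here are in the authors' deposited table with the same direction. The 26 others it lists did not pass here, and 48 of the 51 had an unadjusted p under 0.05 in the present fit. Among these are miR-47-3p (log2 fold change here 0.83, edgeR adjusted p = 0.0622), miR-85-3p (-0.75, edgeR adjusted p = 0.149) and miR-1022-5p, a small but tight difference from 137 to 150 CPM in wild type to 195 to 210 CPM in tm1563 (0.51, edgeR adjusted p = 0.0576). let-7-3p, the minor arm of let-7, is listed as higher in the authors' deposited table. Here it was at 48.0, 25.9 and 13.9 CPM in wild type and 67.8, 74.8 and 44.8 CPM in tm1563, where wild-type library 1 overlapped the mutant (1.11, edgeR adjusted p = 0.194).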

How the data were processed

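The authors deposited whole-number, unnormalized counts for each mature arm. Their comparison table holds a p-value, raw and adjusted, a log2 fold change and, per the file headers, normalized group means (a signal). Bowtie, DESeq2 and build WBcel235 are named in the submitters' processing notes; not given in the sources used here: allowed mismatches and the treatment of reads mapping to several places. The tm1563 columns carry the gene's name and no line code and were matched by inference; 0 count columns were left unmapped. Some arms of related miRNAs (miR-44-3p with miR-45-3p, and within the mir-35, mir-51, mir-58, mir-1829 and mir-789 groups) may share reads. This could not be checked without mature sequences.

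From the counts, edgeR's quasi-likelihood model was fitted to all 12 libraries with 1 mean per column group (edgeR 4.0.16, R 4.3.3; TMM scaling; filterByExpr with minimum count 10 and total 15), with Benjamini-Hochberg adjustment over 250 tested features and a threshold of 0.05. The untested features held 0.00490% of counts. Standard errors are the log2 fold change over the square root of F, and intervals are at 95%. The log2 ratio of 5p to 3p counts (0.5 added to each) was tested with limma 3.58.1. DESeq2 1.42.0 was an alternative. The fits were tested on simulated data, and scaling, filter, block, DESeq2 and left-out libraries were tried as alternatives. Families were summed from lists of names rather than, as planned, by seed, because no mature sequences were at hand. P-values weigh a difference in group means against the spread among libraries within groups, which the main fits estimated from all 12 libraries.

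Named are all called miRNAs, with every library for the 14 of smallest p, their other arms, called precursors, called list members, the 5 most abundant, miR-71-5p, miR-1-3p, lin-4-5p and let-7-5p. Others (miR-791-3p, miR-52-5p, miR-359, cluster and list members that did not pass, those of the authors' table) were chosen after their values were seen. The members and lists were chosen with earlier results of these data known. miR-45-3p, miR-137-3p, miR-1017-3p, miR-1019-3p and miR-1834 were not analysed here, and miR-58b-3p was too rare to test. Hairpin positions are from the Ensembl annotation of WBcel235; clusters are hairpins on a strand within 10 kb.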

Additional observations from a re-analysis of the deposited data

How the results depend on the processing

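Against wild type, the 13 rises were 11 with RLE size factors, 14 with library totals, 8 without the filter on low counts, 17 with only both groups fitted, 16 by DESeq2 and 10 with the replicate number as a block; the 11 falls were 17, 1, 17, 23, 21 and 6. Leaving out a library gave 5 to 9 rises and 0 to 9 falls. By calls lost, the tm1563 library 1 mattered most, at 19 of 24, and no called miRNA turned its direction. Calls of tm1563 over the isoform lines, 13 higher and 1 lower, numbered 7 to 8 higher and 0 to 1 lower without a tm1563 library, and 3, 0, 2 and 6 lower with RLE size factors, library totals, no filter and DESeq2. The ratio of 5p to 3p had 2 changes in each direction, higher in mir-51 and mir-788 and lower in mir-90 and mir-39. It gave 3 and 4 with only both groups fitted, and 0 to 2 and 0 to 1 without a library. Same-numbered wild-type and tm1563 libraries correlated in their deviations at -0.015, 0.070 and 0.097, so the numbers were not taken to pair the samples; the block lost 9 of the 24 calls, and the pairing hint was absent, since not every library correlated best with its own number.

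The changes of sign were all in values that did not pass. miR-44-3p was at 0.081 with library totals and from -0.27 to 0.15 without a library, miR-70-3p from -0.38 to 0.16 and miR-58a-3p from -0.29 to 0.094. The let-7 family sum was at 0.0023 with RLE size factors and by DESeq2, 0.16 with library totals and from -0.14 to 0.010 without a library, and the mir-44 family sum at 0.0048 with library totals. Over the isoform lines, miR-1829b-3p was at 0.033 with library totals, 0.028 with the block and from -0.32 to 0.13 without a library, miR-71-3p from -0.24 to 0.040 and miR-1830-5p from -0.056 to 0.16. The cause was not tested. Depth limits the rare miRNAs: 70 of the 235 lay under 10 CPM in wild type.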

Other observations

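Several rare miRNAs had log2 fold changes above 1 in size without passing the test, and they are given as values only. miR-5547-3p was at 0.897, 0.478 and 0.650 CPM in wild type and 1.53, 1.75 and 1.60 CPM in tm1563 (log2 fold change 1.29, edgeR adjusted p = 0.0819). miR-4807 was at 0.598, 1.05 and 0.650 CPM and at 1.83, 1.25 and 1.71 CPM (1.03, edgeR adjusted p = 0.214), and miR-233-5p at 1.20, 0.669 and 0.650 CPM and at 1.43, 2.13 and 1.49 CPM (1.05, edgeR adjusted p = 0.142). The groups did not overlap for these, and each lay within a few counts of the floor in wild type.

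For miR-60-5p, the minor arm of an intestinal miRNA, the fitted difference rested on wild-type library 1. It held 21.5 CPM, against 2.87 and 2.03 CPM in the other wild-type libraries and 2.85, 3.13 and 3.20 CPM in tm1563 (log2 fold change -1.47, edgeR adjusted p = 0.203). The major arm miR-60-3p was not raised in that library alone, at 4998, 4976 and 2828 CPM in wild type.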
